A study of Rattus norvegicus with 6 samples.

Results

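The 4 annotated arms of miR-199a and miR-214 were followed in exosomes, vesicles shed by cells, from rat serum. They were taken by name, as rno-miR-199a-3p, rno-miR-199a-5p, rno-miR-214-3p and rno-miR-214-5p, from a deposited table of 763 mature microRNAs (miRNAs), and are written below without the species prefix. They were chosen by their shared transcript and with their values in these same libraries in view, so their levels and fold changes between the groups are given as a description and not as a test. The ischemic preconditioning (IPC) group held 3 libraries. Their donors were male Sprague-Dawley rats, 9 to 10 weeks old and 250 to 280 g in weight, whose left anterior descending coronary artery was tied under pentobarbital 3 times for 5 min, with 5 min of reperfusion each time. The 3 control libraries came from rats of the same strain, sex, age and weight, bled from the left ventricle in the same way but not preconditioned, with no sham surgery mentioned in the labels. Whether each library stands for its own rat is not stated, so every SD and SE below measures only the spread between these libraries, which may be technical.

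A miRNA hairpin is cut into a duplex whose strands, the 5p and 3p arms, are loaded unequally into Argonaute, and the loaded arm finds its target mRNAs mainly through its seed, bases 2 to 8. In mice, miR-199a-2 and miR-214 are made from Dnm3os, a noncoding RNA that runs opposite to the dynamin gene Dnm3 and is transcribed in mesenchymal tissue under the transcription factor Twist1. In cultured rat cardiac myocytes, miR-199a-5p is known to repress Hif1a and Sirt1 and to drop in low oxygen, miR-199a-3p is known to promote division of newborn rat cardiac myocytes, and miR-214 is known in mice to limit calcium overload in the ischemic heart.

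The arm sequences are shown because arms of 1 hairpin, and arms that look alike, carry different seeds. The mature sequences come from RefSeq on rat build GRCr8, with the seed in capitals.
miR-199a-3p: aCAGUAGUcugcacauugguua
miR-199a-5p: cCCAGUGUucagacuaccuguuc
miR-214-3p: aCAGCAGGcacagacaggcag
miR-214-5p: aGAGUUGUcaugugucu
On GRCr8 these lie on the plus strand of chromosome 13, at chr13:77116294-77116315 for miR-199a-3p, chr13:77116255-77116277 for miR-199a-5p, chr13:77121713-77121733 for miR-214-3p and chr13:77121656-77121672 for miR-214-5p. The genes Mir199a2 and Mir214 are 5.31 kb apart, and both lie inside the span of Dnm3, which is on the minus strand. The 4 seeds differ from each other, and 0 of the other mature miRNAs listed in that RefSeq table share any of them. The table matched 686 of the 763 deposited names, and miR-761, which is placed in the seed family of miR-214-3p in mammals, is not among those matched. miR-199a-3p and miR-214-3p begin with the same bases but differ within the seed by U5C and U8G (positions counted from 1 at the 5′ end, the base of miR-199a-3p first).

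The miR-214 hairpin is shown because its annotated 5p arm had no count in any library. It covers chr13:77121645-77121752 on GRCr8, plus strand, with the annotated 5p arm and then the 3p arm in capitals.
Mir214: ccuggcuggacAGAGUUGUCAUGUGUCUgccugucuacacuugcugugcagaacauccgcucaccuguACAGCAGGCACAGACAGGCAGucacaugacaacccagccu
The annotated 5p arm takes up bases 12 to 28 of the 108 and the 3p arm bases 69 to 89. In the minimum free energy fold computed with RNAfold, 18 of the 21 bases of the 3p arm were paired, with bases 27 to 47, and the annotated 5p arm held 2 of those partners. The stretch that faces the 3p arm in this fold is therefore mostly outside the annotated 5p arm.
Stretch facing miR-214-3p: cugccugucuacacuugcugu
At 17 bases, miR-214-5p is among the 7 shortest of the 693 mature names in the RefSeq table, whose median is 22. miR-3120, which is encoded on the opposite strand across the same hairpin, is complementary to bases 28 to 48.
miR-3120: cACAGCAAguguagacaggca

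Depth differed between the groups. Whole counts, worked back from the authors' values, came to 319285 to 762927 in IPC libraries and 111048 to 152343 in controls. Each IPC library was deeper than each control library, so counting error was wider in controls. Values are given below as normalised counts, the authors' values at a common library size of 265919, beside the recovered counts. The controls did not form a group of their own. Over the 226 miRNAs that passed the abundance filter, control replicate 2 had Spearman correlations of 0.88 to 0.93 with the IPC libraries. It had 0.77 and 0.69 with control replicates 1 and 3, while control replicates 1 and 3 had 0.86 with each other. These correlations run across miRNAs, which are not independent replicates. Control replicate 1 also had a higher value with an IPC library, 0.88 with IPC replicate 1, than with control replicate 3, and 0.85 with IPC replicate 2. The fold changes of the arms and the differences between arms are given with and without control replicate 2.

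miR-199a-3p was the most abundant arm in every library except control replicate 3, where miR-214-3p was higher. It was at 125, 241 and 355 normalised counts in IPC replicates 1, 2 and 3, against 37.8, 252 and 14.5 in control replicates 1, 2 and 3. These values rest on 336, 576 and 479 recovered counts in the IPC libraries and on 12, 204 and 6 in the controls. Control replicate 2 lay between IPC replicates 2 and 3, and the other controls lay below all IPC libraries. The groups therefore overlapped through 1 control library.

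The mean was 240 ± 115 normalised counts in IPC libraries and 101 ± 131 in controls (SD, n = 3 each), a ratio of means of 2.37. On the log2(value + 1) scale the difference was 2.05 (SE 0.96), or 4.15-fold, the 18th highest of the 226 tested miRNAs. It was 3.18 without control replicate 2 and 1.16 without control replicate 3. The authors' deposited table gives a log2 fold change of 1.24, without stating how it was computed. The ratio of means of 2.37 lies close to that value once it is put on the log2 scale. A ratio of means is an unlike measure from the difference of mean log2 values. Among all miRNAs with a count in a library, miR-199a-3p ranked 94, 71 and 59 in IPC replicates 1, 2 and 3, against 136, 62 and 179 in control replicates 1, 2 and 3.

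miR-199a-5p, the other arm of the same hairpin, was much scarcer. It was at 4.49, 28.0 and 15.5 normalised counts in IPC replicates 1, 2 and 3, against 9.79, 22.2 and 9.54 in control replicates 1, 2 and 3. These values rest on 13, 66 and 21 recovered counts in the IPC libraries and on 3, 18 and 4 in the controls. The lowest library and the highest were both IPC libraries, and the groups overlapped throughout. The mean was 16.0 ± 11.8 in IPC libraries and 13.8 ± 7.22 in controls (SD, n = 3 each). The log2 difference was -0.00024 (SE 0.84), so its sign was not resolved. It was 0.67 without IPC replicate 1, -0.54 without IPC replicate 2 and 0.37 without control replicate 2. The authors' deposited table gives 0.19. This arm passed the abundance filter in 2 IPC libraries and 1 control library, the least number of libraries that the filter allows.

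Of the 3 arms with counts, miR-214-3p varied least. It was at 38.8, 30.5 and 24.4 normalised counts in IPC replicates 1, 2 and 3, against 28.3, 61.8 and 41.3 in control replicates 1, 2 and 3. These values rest on 104, 73 and 33 recovered counts in the IPC libraries and on 9, 50 and 18 in the controls. The highest values were those of control replicates 2 and 3, while control replicate 1 lay within the IPC range. The highest library was 1.59 times the lowest within the IPC group and 2.19 times the lowest within the controls, while for miR-199a-3p it was 2.84 times within the IPC group and 17.4 times within the controls. The mean was 31.3 ± 7.26 in IPC libraries and 43.8 ± 16.9 in controls (SD, n = 3 each). The log2 difference was -0.43 (SE 0.71), less than its error, and -0.15 without control replicate 2, -0.70 without control replicate 1 and -0.27 without IPC replicate 3. The authors' deposited table gives -0.49.

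**Figure D1:**
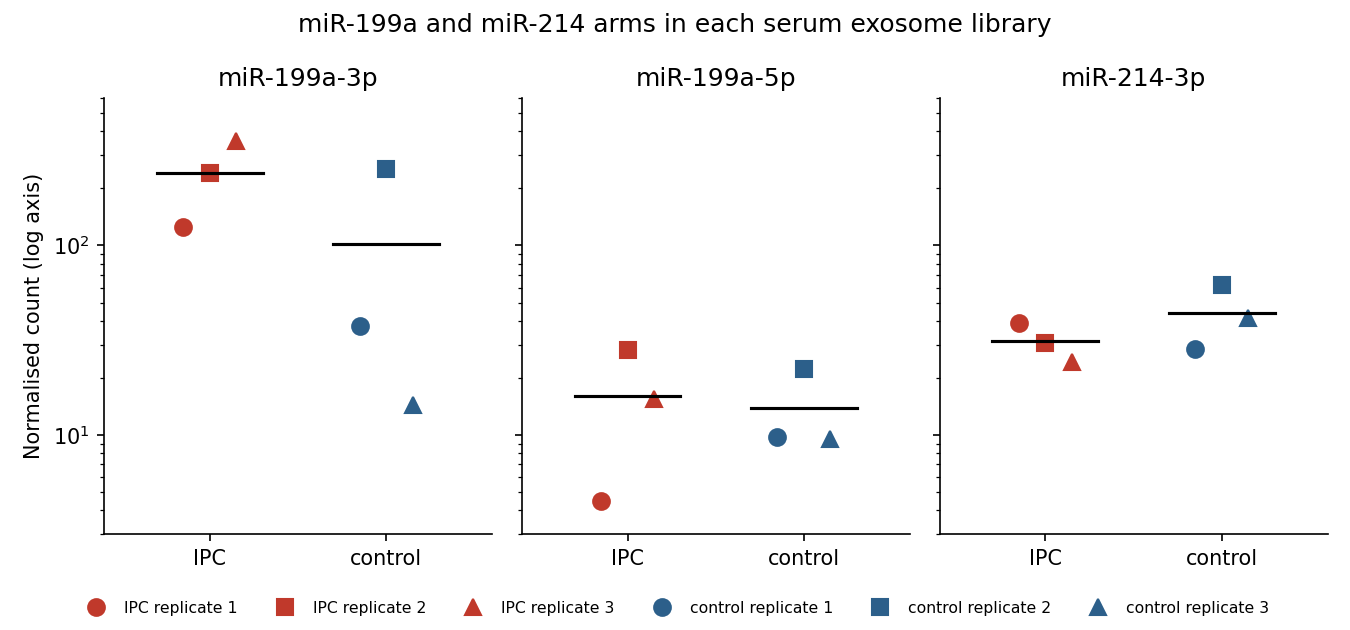
Normalised counts (vertical log axis) of 3 arms in the IPC and control libraries, with 1 marker per library and a line at the group mean. For miR-199a-3p control replicate 2, at 252, sits among the IPC libraries, while control replicates 1 and 3 are at 37.8 and 14.5. miR-214-5p is not drawn because it had 0 counts.

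miR-214-5p had 0 counts in all 6 libraries, beside 210 counts of miR-214-3p in the IPC group and 77 in controls. Counts of 0 over a group allow up to 3 counts, which is 1.43% of the 3p counts summed over the IPC group and 3.90% over the controls. In single libraries the same 3 counts are 2.88%, 4.11% and 9.09% in IPC replicates 1, 2 and 3. They are 33.3%, 6% and 16.7% in control replicates 1, 2 and 3, where the group bound rests mostly on the 50 counts of control replicate 2. These bounds concern the annotated 17-base arm. Whether reads from the stretch that faces the 3p arm were counted under another name was not tested. miR-3120, whose sequence is complementary to most of that stretch, had 7 counts in IPC replicate 1, 1 in IPC replicate 3, and 0 in IPC replicate 2 and in each control. It lay below the abundance filter, and controls were too shallow to show a level of this size. miR-761 had 0 counts in all 6 libraries.

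The arms of miR-199a were not in a fixed ratio. The 3p arm made up 96.3%, 89.7% and 95.8% of the miR-199a counts in IPC replicates 1, 2 and 3. In control replicates 1, 2 and 3 it made up 80.0%, 91.9% and 60.0%. The exact 95% binomial intervals (Clopper-Pearson) were 93.7 to 98.0%, 87.1 to 92.0% and 93.7 to 97.4% in the IPC libraries, and 51.9 to 95.7%, 87.5 to 95.1% and 26.2 to 87.8% in the controls. They cover counting error only, with each count taken as independent. Reads carry no molecular identifiers, so that independence cannot be checked and the intervals may be too narrow. The 3p arm was thus the major one in every library by count, with intervals in control replicates 1 and 3 that rest on 15 and 10 counts.

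Among the IPC libraries the interval of replicate 2 lay below those of replicates 1 and 3. If counts are independent, the arm ratio thus also varied within that group beyond counting error. The log2 ratio of 3p to 5p counts averaged 4.11 ± 0.86 in IPC libraries and 2.03 ± 1.46 in controls (SD, n = 3 each), a difference of 2.08 (SE 0.98). It was 2.82 without control replicate 2 and 1.36 without control replicate 3. Control replicate 2 was again inside the IPC range. For scale, 43 hairpins had both arms tested, counting miR-199a. Their differences in this log2 ratio ran from -3.57 to 3.65 with a median of -0.36, and 14 were above 0 (with 0.5 added to both arms where a library had a 0). miR-199a had the 2nd highest, and 4 of the 43, itself included, were at least as large in either direction. For 6 of the 43 the groups did not overlap in this ratio, while for miR-199a they did.

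miR-199a-3p and miR-214-3p were not in a fixed ratio either. In mice, miR-199a is also made from a locus inside Dnm2, and miR-199b has the same 3p arm, so counts of miR-199a need not come from the transcript shared with miR-214 alone. There were 3.23, 7.89 and 14.5 counts of miR-199a-3p per count of miR-214-3p in IPC replicates 1, 2 and 3. In control replicates 1, 2 and 3 there were 1.33, 4.08 and 0.333. Control replicate 2 lay above IPC replicate 1, and the other controls lay below all IPC libraries. The exact 95% intervals of the IPC libraries were 2.59 to 4.07, 6.18 to 10.2, and 10.2 to 21.3 for replicates 1, 2 and 3. With each count again taken as independent, they show spread within the group beyond counting error. In controls they were 0.516 to 3.58, 2.98 to 5.68 and 0.108 to 0.877 for replicates 1, 2 and 3.

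On the log2 scale this ratio averaged 2.84 ± 1.09 in IPC libraries and 0.29 ± 1.81 in controls (SD, n = 3 each), a difference of 2.56 (SE 1.22). It was 3.43 without control replicate 2 and 1.62 without control replicate 3. A ratio within a library does not depend on how libraries are scaled to each other, so this spread is not set by the scaling. The ratio of miR-199a-5p to miR-214-3p counts was 0.125, 0.904 and 0.636 in IPC replicates 1, 2 and 3, against 0.333, 0.360 and 0.222 in control replicates 1, 2 and 3. Its log2 difference was 0.48 (SE 0.91), with the lowest and the highest library both in the IPC group. It was 1.34 without IPC replicate 1, -0.083 without IPC replicate 2, 0.17 without IPC replicate 3, 0.61 without control replicate 2 and 0.26 without control replicate 3, so its sign rested on single libraries.

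**Figure D2:**
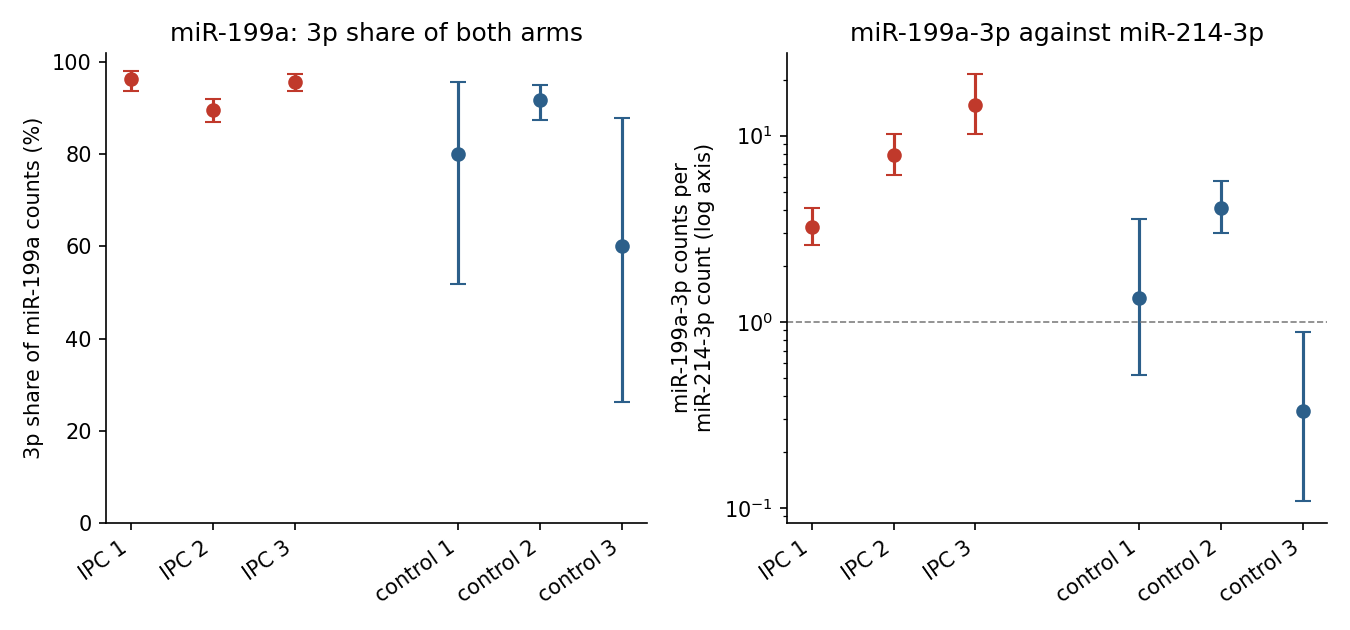
Left, percent of miR-199a counts from the 3p arm in each library; right, counts of miR-199a-3p per count of miR-214-3p on a log axis, with a dashed line at 1. Bars are exact 95% intervals for counting error, with each count taken as independent. Control replicates 1 and 3 rest on few counts and have the widest intervals, and control replicate 2 lies at 91.9% and 4.08, within the IPC ranges.

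All 4 arms together took 0.0594%, 0.108% and 0.167% of counts in IPC replicates 1, 2 and 3, against 0.0216%, 0.179% and 0.0216% in control replicates 1, 2 and 3. miR-214-3p supplied 23.0%, 10.2% and 6.19% of these arm counts in the IPC libraries. In control replicates 1, 2 and 3 it supplied 37.5%, 18.4% and 64.3%. The summed share was highest in control replicate 2, a control library.

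The question behind the study's comparison is how preconditioning changes the miRNA content of serum exosomes, and its title names another miRNA, miR-133a-3p. limma, fitted to all 226 tested miRNAs, called 0 higher (0%) and 0 lower (0%) at a Benjamini-Hochberg adjusted p below 0.05, and 0 of the 3 arms tested. At an unadjusted p below 0.05 it had 20 higher (8.85%) and 4 lower (1.77%), and 0 of the 3 arms were among them. That count of 24 was 8 when IPC replicate 2 was left out, 9 when IPC replicate 3 was, 79 when control replicate 2 was and 12 when control replicate 3 was. With median-of-ratios scaling it was 19, with 12 higher and 7 lower. Every IPC library exceeded every control library for 28 miRNAs (12.4%) and was under every control library for 3 (1.33%), and again 0 of the 3 arms were among them. limma-voom on the recovered counts called 0, with 23 at an unadjusted p below 0.05. Leaving out control replicate 2, limma called 29 higher and 9 lower of the 226, and miR-199a-3p was among those higher, while miR-199a-5p and miR-214-3p were not called. Since the arms were picked with results of this contrast known, nothing is read from these counts. Of all 226 log2 fold changes 142 were above 0, with a median of 0.38 and quartiles of -0.32 and 1.20. miR-199a-3p thus lay above the upper quartile, miR-199a-5p between the quartiles and miR-214-3p below the lower quartile. In exosomes from whole serum, fewer vesicles from a cell type and less miRNA per vesicle cannot be told apart.

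**Figure D3:**
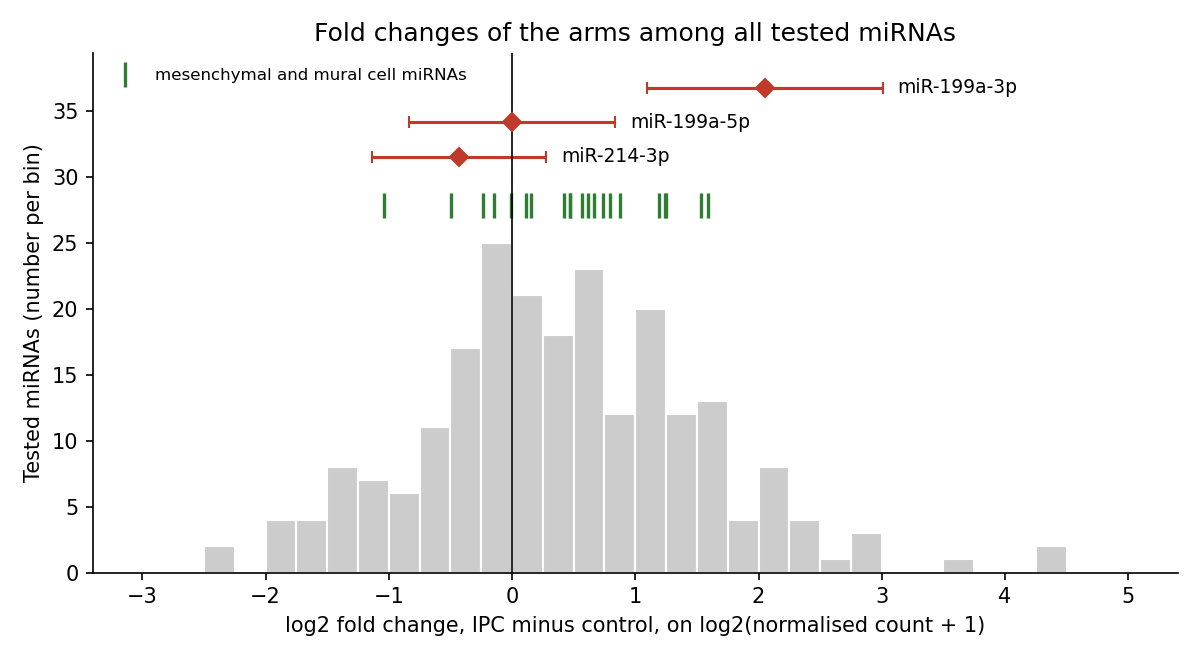
Histogram of the log2 fold changes, IPC minus control, of the 226 tested miRNAs, with the arms as diamonds (bars, SE) and the 21 tested mesenchymal and mural cell miRNAs as ticks. The arms lie at 2.05, -0.00024 and -0.43, on both sides of the median of 0.38.

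miRNAs known from fibroblasts, other mesenchymal cells and vascular mural cells were set beside these arms as a list of 25. All 25 had counts, 21 were tested and limma called 0 of them, with 0 at an unadjusted p below 0.05, against 24 of 226 (10.6%) over all tested miRNAs. Of the 21, 16 log2 fold changes were above 0 and 5 below, with a median of 0.57, against 142 of 226 above 0 and a median of 0.38 over all tested miRNAs. The groups overlapped for each of the 21, while they did not for 31 of the 226 (13.7%). miR-143-3p, made in smooth muscle and other mesenchymal cells, was at 2581, 8815 and 4747 normalised counts in IPC replicates 1, 2 and 3. It was at 2088, 3449 and 3774 in control replicates 1, 2 and 3. Its log2 difference was 0.66 (SE 0.64), with IPC replicates 2 and 3 above all controls.

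The other abundant members of that list are expressed in many cell types. miR-24-3p, made from the clusters that also hold miR-23 and miR-27, was at 17701 ± 3584 normalised counts in IPC libraries and 11525 ± 5407 in controls (SD, n = 3 each), a log2 difference of 0.74 (SE 0.60). miR-22-3p, abundant in heart and skeletal muscle among other tissues, was at 6324 ± 3260 in IPC libraries and 8619 ± 3671 in controls, a log2 difference of -0.49 (SE 0.64). miR-21-5p, known to increase in cardiac fibroblasts of the failing heart, was at 2150 ± 1083 in IPC libraries and 1545 ± 1430 in controls, a log2 difference of 0.79 (SE 0.77). In this list the summed share of counts was 13.6% to 14.0% in IPC libraries. It was 7.93%, 17.4% and 8.57% in control replicates 1, 2 and 3, with control replicate 2 above every IPC library, as it was for the 4 arms.

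Markers of other sources of serum exosomes were summed in the same way. The 7 heart and skeletal muscle miRNAs took 1.42% to 8.44% of counts in IPC libraries, against 0.285%, 1.83% and 0.216% in control replicates 1, 2 and 3. All 7 had counts, and miR-208b-3p was at 0 in control replicates 1 and 3. The 6 of them tested had log2 fold changes above 0, with a median of 2.83, against 142 of 226 above 0 and a median of 0.38 over all tested miRNAs. All 6 were at an unadjusted p below 0.05, against 10.6% of all tested, 0 were called at the adjusted threshold, and for 4 every IPC library exceeded every control library, against 12.4%. These muscle shares were low in the same control libraries as miR-199a-3p, and their part in its level was not tested. The 10 platelet miRNAs, for their part, took 1.62% to 1.86% of counts in IPC libraries and 1.35% to 2.48% in controls, and 0 of them was at 0 counts in all libraries. Of the 9 tested, 5 log2 fold changes were above 0 and 4 below, with a median of 0.17. limma had 1 of them at an unadjusted p below 0.05, against 10.6% of all tested. For 1 every IPC library exceeded every control library, against 12.4%. Leukocyte miRNAs (7, all with counts) took 1.85%, 2.94% and 2.39% of counts in IPC replicates 1, 2 and 3. In control replicates 1, 2 and 3 they took 1.09%, 2.31% and 0.752%, so control replicates 1 and 3 lay below all IPC libraries here too. Of the 6 tested, 5 log2 fold changes were above 0 and 1 below, with a median of 0.78. At an unadjusted p below 0.05 there were 0 of them, against 10.6% of all tested, and for 1 every IPC library exceeded every control library, against 12.4%. The 4 red-cell miRNAs, all with counts, took 4.92% to 5.78% in IPC libraries and 4.09% to 7.77% in controls. Hepatocyte miRNAs (4, all with counts) took 0.703% to 1.47% of counts in IPC libraries and 1.04% to 2.29% in controls. The part of these sources in the levels of the arms was not tested either.

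The library profile of each arm, its log2(value + 1) in the 6 libraries less its own mean, was set beside those of the other 223 tested miRNAs by the root mean square distance in log2 units. The profiles nearest to miR-199a-3p were those of miR-30a-5p at 0.46, miR-499-5p at 0.47 and miR-208a-3p at 0.48, where the median distance was 1.63. miR-30a-5p is expressed in many tissues, and miR-499-5p and miR-208a-3p are encoded in myosin genes of striated muscle. miR-208a-3p was at 95.6, 111 and 179 normalised counts in IPC replicates 1, 2 and 3, and at 13.3, 93.7 and 2.99 in control replicates 1, 2 and 3. Like miR-199a-3p it was low in control replicates 1 and 3 alone. All profiles come from the same 6 libraries and so share their depth and scaling.

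For miR-199a-5p the nearest profiles were those of miR-200b-3p of epithelia at 0.32, miR-126a-3p of endothelium at 0.42 and miR-142-3p of blood cells at 0.53 (median distance 1.21). For miR-214-3p they were those of the widely expressed miR-186-5p at 0.27, miR-134-5p of the imprinted Dlk1-Dio3 locus at 0.31 and miR-183-5p of sensory cells at 0.32 (median distance 1.05). The distance between the 2 arms of miR-199a was 1.41, and 89 of the 223 miRNAs were nearer to miR-199a-3p than its own 5p arm was. In the other direction, 155 were nearer to miR-199a-5p than its 3p arm was. The distance between miR-199a-3p and miR-214-3p was 1.71, with 117 of the 223 nearer to miR-199a-3p and 205 nearer to miR-214-3p. miR-199a-5p and miR-214-3p were 0.89 apart, with 43 nearer to miR-199a-5p and 81 nearer to miR-214-3p. miR-199a-5p rests on 3 and 4 counts in control replicates 1 and 3, so counting error enters its distances.

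**Figure D4:**
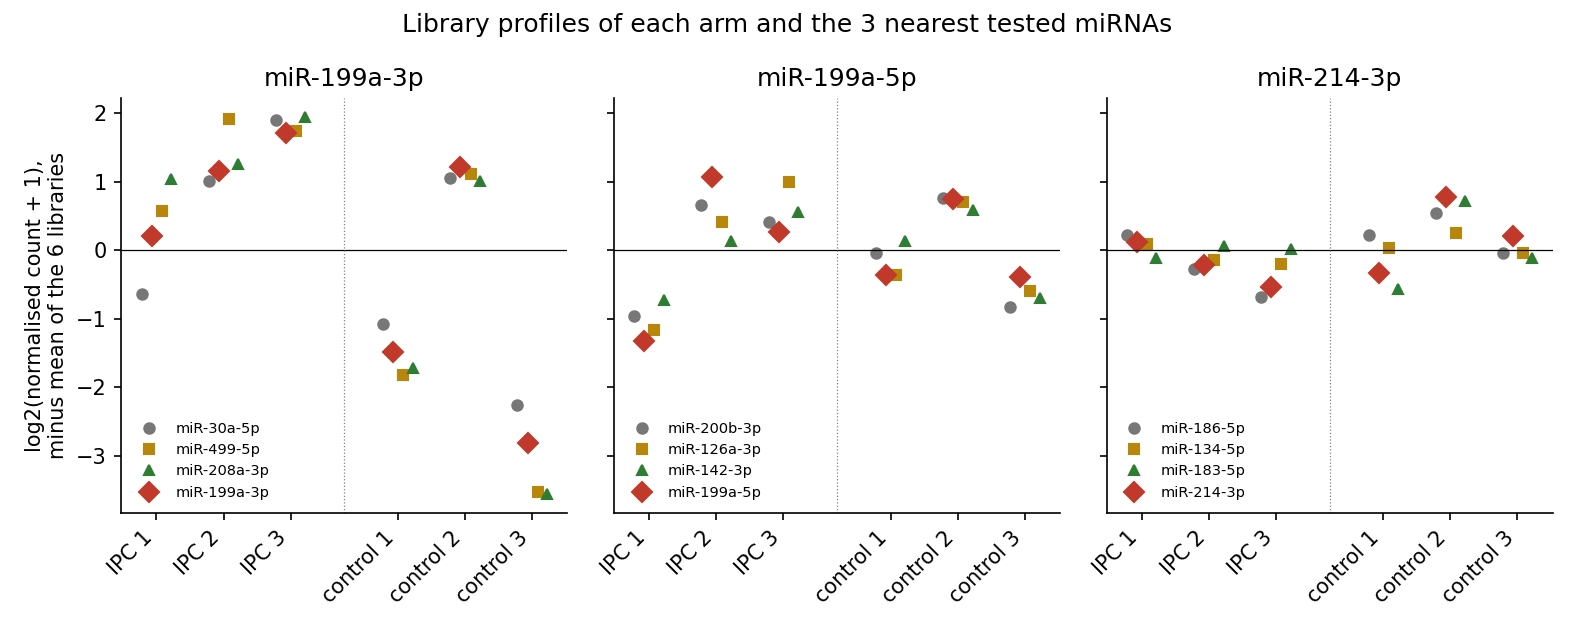
Each panel shows log2(normalised count + 1) less the mean of the 6 libraries (vertical axis) for 1 arm (diamonds) and the 3 tested miRNAs nearest to it, library by library. miR-199a-3p is below its mean in control replicates 1 and 3 alone, miR-199a-5p is lowest in IPC replicate 1, and miR-214-3p has the narrowest span of the 3 arms.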

How the data were processed

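Per the labels' protocols, small RNA libraries were built with an NEBNext kit from 1 µg of RNA per exosome sample and sequenced on an Illumina HiSeq (single-end, 50 bp). Tools named in the submitters' processing notes are BWA, edgeR and FastQC, with rat build rn6 and no versions or roles. How reads were trimmed and which miRNA release was used is not given in the sources used here. Per the file headers, the deposited table holds 1 column per library, whose values are a normalised signal, together with the authors' log2 fold change and the authors' unadjusted p-value.

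The signal has the form of quantile-adjusted counts (common size 265919, dispersion 0.503), a form read from the values themselves and stated in no label. Inverting that form gave 4578 of 4578 values within 0.01 of a whole count, with totals of 111048 to 762927 per library. Values of 0 return a count of 0 by construction, and 284 to 419 of the 763 miRNAs had a count in a library.

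All 6 libraries were compared with limma 3.58.1 (R 4.3.3) on log2(value + 1), with empirical Bayes moderation that was trended and robust, group as the only term, and Benjamini-Hochberg adjustment. The filter kept miRNAs that reached 10 counts, scaled to the median effective library size (34.9 CPM), in 3 or more libraries, and 15 counts in all. Python 3.11.15, scipy 1.17.1 and RNAfold 2.7.2 were used. The limma steps were run on simulated libraries with changes larger than those of the arms, a shared dispersion and no outlying library. Those runs do not cover changes of the size seen here. The inversion was tried only on values made by the same assumed form. Libraries of the same group differed from each other beyond sampling noise (chi-square per degree of freedom 150 to 445), so none was merged. RefSeq mature names matched 686 of the 763 miRNAs.

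The arms, the lists and the tests were chosen with earlier results of these data known. Named miRNAs were all listed arms, the 4 most abundant tested members of the mesenchymal list, relatives and neighbours in the table, and the 3 nearest profiles of each tested arm. miR-208b-3p was named after its values were seen. Other pseudocounts, filters, scalings, a replicate block and each library left out were the alternatives.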

Additional observations from a re-analysis of the deposited data

How the results depend on the processing

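Over the 5 alternatives that keep all libraries and can move a fitted fold change (pseudocounts, scalings and limma-voom), the log2 fold change of miR-199a-3p ran from 1.84 to 2.09, that of miR-214-3p from -0.66 to -0.39 and that of miR-199a-5p from -0.16 to 0.069, on both sides of 0. With 1 library left out they ran from 1.16 to 3.18, from -0.70 to -0.15 and from -0.54 to 0.67. The difference in the log2 ratio of miR-199a-3p to miR-199a-5p ran from 1.36 to 2.82, that to miR-214-3p from 1.62 to 3.43, and that of miR-199a-5p to miR-214-3p from -0.083 to 1.34 (added after seeing the data). From the deposited values in place of counts these were 2.12, 2.53 and 0.41. limma called 0 to 38 miRNAs with 1 library left out, the 38 without control replicate 2. At an unadjusted p below 0.05 it had 8 to 79, and 52 with no filter, against 24. It called 3 with no filter on low values (miR-18a-5p, miR-206-3p and miR-1-3p, named after their values were seen), for which the cause was not tested. Median-of-ratios scaling placed the median of all tested miRNAs at 0.19 against 0.38 in the fit as reported.

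Whether replicate numbers pair the libraries is not stated in the labels. Deviations of same-numbered libraries from their group means correlated at 0.13, -0.18 and -0.51 across miRNAs for numbers 1, 2 and 3. Those of other-numbered libraries correlated at -0.42 to 0.64. With 3 libraries per group these values cannot decide whether the numbers mark a pairing. With the replicate block limma called 2 (miR-206-3p and miR-1-3p). In this balanced design a block cannot move a fold change or a ratio difference, so the values stay at 2.05, -0.00024, -0.43, 2.08 and 2.56 by construction. The SEs with the block were 0.92 for miR-199a-3p, 1.05 for miR-199a-5p and 1.04 for miR-214-3p, against 0.96, 0.84 and 0.71 without it. Depth limits controls most: miR-199a-5p rests on 3 and 4 counts in control replicates 1 and 3, and a level under 3 counts is 34.5 CPM in control replicate 1.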
